A study of Homo sapiens with 2 samples.

Results

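Most genes described here make cholesterol and fatty acids, a synthesis driven by the sterol regulatory element-binding proteins (SREBPs). The others regulate it or act in sterol transport. All were chosen by name: 38 genes were listed, and every probe set annotated to a listed gene alone was used. This gave 77 probe sets for 34 genes, among 18392 genes with such a probe set. CYP51A1 and FADS1 had only probe sets that are annotated to a second gene as well, and FDFT1 and ACSL3 were not analysed here. The study measured RNA of PC3 cells, a human prostate cancer line established from a bone metastasis, on 2 arrays. The first held cells given 10 µM fluphenazine, a phenothiazine antipsychotic, and the other held cells given the solvent DMSO. Both cultures were of the same line, kept in medium with serum. How long the cells were exposed is not stated in the labels.

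With 1 array for each treatment there is no spread between cultures, and no difference below has a test or a p-value. Each value is the authors' log2 signal of a probe set, and each difference is the fluphenazine value minus the DMSO value. Signals of different probe sets are not on a common scale, so only the 2 arrays are compared. The fluphenazine-minus-DMSO differences of a gene's probe sets varied around their mean with a pooled SD of 0.13 on the log2 scale (3668 genes). This SD does not contain the variation between cultures. In a culture, fewer cells with a transcript and less of it in each cell cannot be told apart.

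SREBPs are transcription factors held in the endoplasmic reticulum membrane while sterols are plentiful. When sterols run low, the escort protein SCAP carries them to the Golgi, where proteases release the part that enters the nucleus. There they bind sterol regulatory elements, usually beside sites of NF-Y and Sp1. The form encoded by SREBF2 acts mainly on sterol genes and the forms encoded by SREBF1 act more on fatty acid genes. Prostate cancer cells are known for active lipid synthesis, and cationic amphiphilic drugs such as phenothiazines are known to gather in lysosomes and to disturb the movement of cholesterol.

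Genes of the sterol pathway were slightly lower in the fluphenazine culture and those of the fatty acid branch were split around 0. A gene was read by its brightest probe set, and it was used when its higher log2 value was at least 6.19, the level that the upper 50% of genes reach. This floor is a rank, not a detection call, and 33 of the 34 measured members passed it. All 33 had both arrays above the floor. In sterol synthesis, 14 of 15 genes were lower, with a median of -0.12, where 51.8% of 9196 genes were lower and the median of all was -0.01. In the fatty acid branch 5 of 11 were lower, with a median of 0.00; after quantile normalization 7 of 11 were. Differences were small: 4 members (TMEM97, ELOVL6, NSDHL and HMGCS1) were lower by more than a threshold of 0.32 on the log2 scale, against 2.58% of all genes. No member was higher by that much, against 2.69% of all genes, and none was 1.5-fold lower, against 0.294%.

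**Figure D1:**
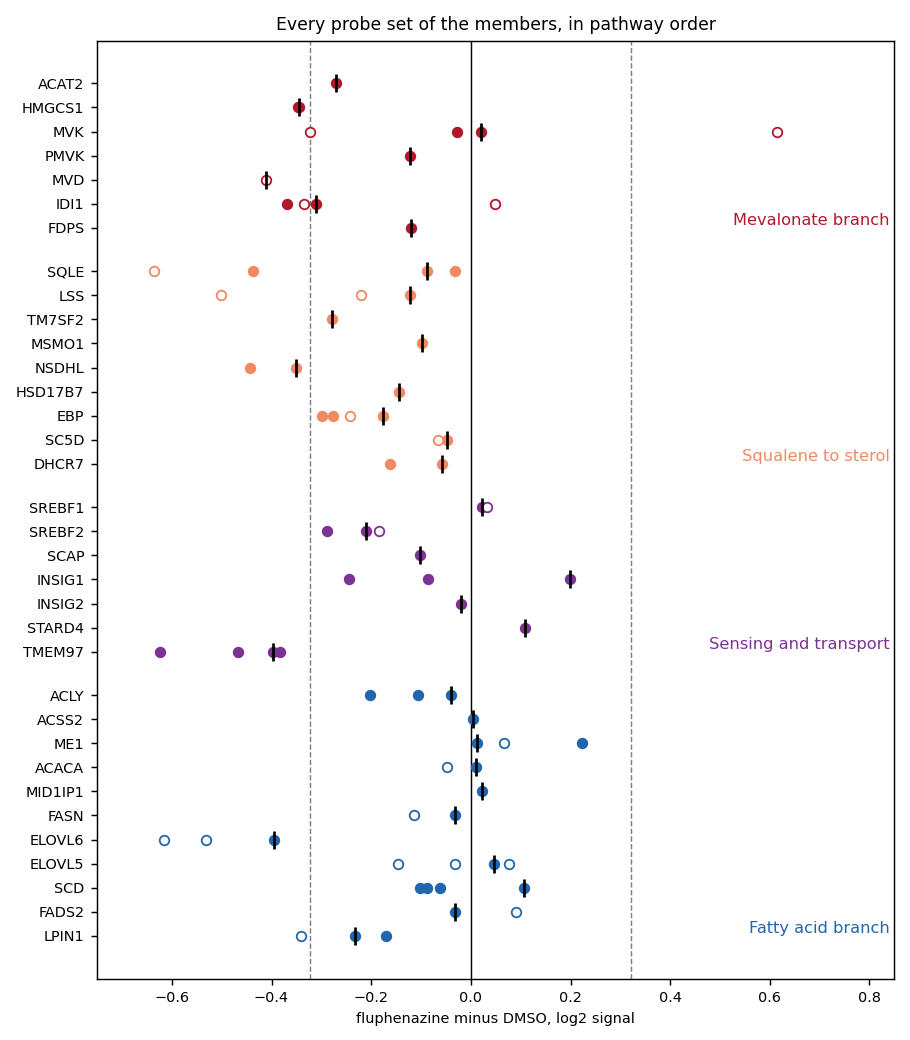
Difference in log2 signal (horizontal axis, fluphenazine minus DMSO) of all 77 probe sets of the members, with genes in pathway order down the page. Filled points are above the floor, open points under it, black ticks mark the probe set that stands for the gene, and dashed lines mark the threshold of 0.32 on either side. Filled points of sterol synthesis lie left of 0 in 23 of 24 cases.

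Counting probe sets gave a similar picture. Of 55 probe sets of members above the floor 44 were lower, against 52.7% of 14668 probe sets, and 11 were lower by more than 0.32, against 2.97%. None was higher by that much, against 2.87%. The 44 include a probe set of SREBF2 that passed the floor on the DMSO array alone and so could only be lower. The 24 probe sets of sterol synthesis had a median of -0.17. In the fatty acid branch 11 of 18 were lower, with a median of -0.04. Under the floor, 16 of 22 probe sets were lower, against 50.2% of all probe sets there. Probe sets of a gene share that gene's transcripts and are not separate measurements of the culture.

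**Figure D2:**
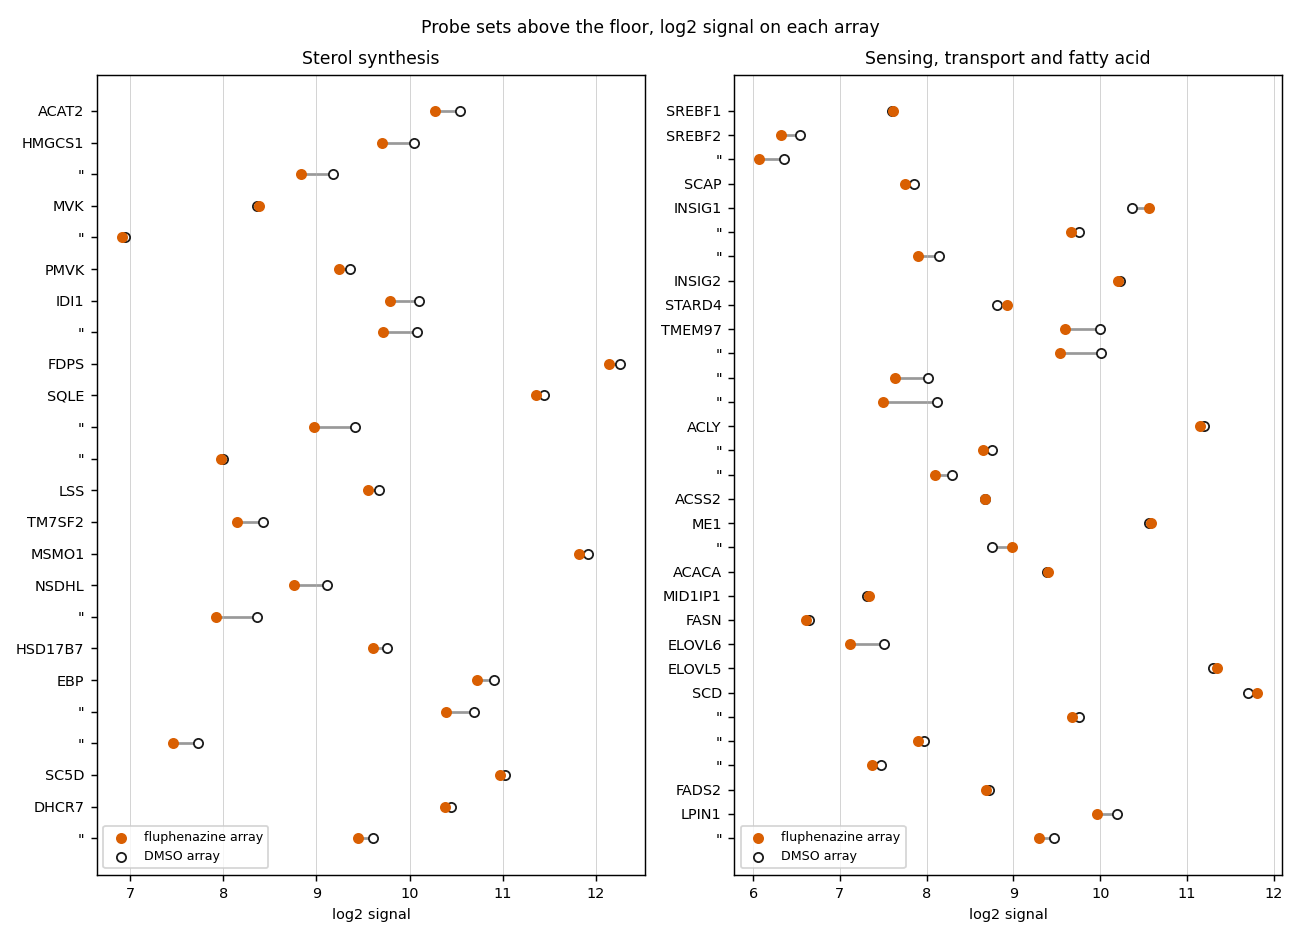
Log2 signal (horizontal axis) of the 55 member probe sets above the floor on the fluphenazine array (filled) and the DMSO array (open), joined by a line, with ditto marks for further probe sets of the gene above. The fluphenazine point lies left of the DMSO point at every probe set of HMGCS1, IDI1, NSDHL, EBP and TMEM97.

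The mevalonate branch builds isoprenoid units from acetyl-CoA. Over its 6 genes above the floor the median was -0.20, or 1.15-fold lower, and 5 were lower. ACAT2, the cytosolic thiolase that joins acetyl-CoA units, had a log2 signal of 10.27 on the fluphenazine array and 10.54 on the DMSO array, a difference of -0.27. HMGCS1, which makes HMG-CoA, had 9.71 against 10.05 at its brighter probe set, a difference of -0.34, and 8.83 against 9.18 at the other, a difference of -0.35. These differences therefore lay apart by far less than the pooled SD, and the gene ranked 193 from the lowest of 9196.

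MVK and PMVK phosphorylate mevalonate in turn. MVK was the exception of the branch, with 8.39 against 8.37, a difference of 0.02, and 6.91 against 6.94 at its other probe set above the floor. Its 2 dim probe sets went opposite ways, at -0.32 and 0.61. PMVK had 9.24 against 9.36, a difference of -0.12. MVD, which turns the product into isopentenyl diphosphate, was the 1 measured member under the floor, with 5.45 against 5.86 at its only probe set, a difference of -0.41.

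IDI1 isomerises isopentenyl diphosphate, and FDPS joins the units into farnesyl diphosphate. IDI1 had 9.79 against 10.10 and 9.71 against 10.08 at its 2 probe sets above the floor. The brighter, at -0.31, stopped just short of the threshold of 0.32, and the other, at -0.37, passed it. The identifiers of both end in x, which marks probes that may also match other transcripts. FDPS, with 12.14 against 12.26, differed by -0.12.

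From squalene to cholesterol, all 9 measured genes were lower, with a median of -0.12 and a range of -0.35 to -0.05. All 15 of their probe sets above the floor were lower too, and so were the 5 under it. The largest difference was that of NSDHL, a dehydrogenase that helps to strip methyl groups from the sterol ring. It had 8.76 against 9.11, a difference of -0.35, and 7.92 against 8.37, a difference of -0.44. The enzymes beside it in that demethylation lay nearer 0: the oxidase MSMO1 had 11.82 against 11.92, and the ketoreductase HSD17B7 had 9.61 against 9.76. The only probe set of HSD17B7 has an identifier that ends in x.

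SQLE, which epoxidises squalene, gave uneven values. Its brightest probe set had 11.36 against 11.45, a difference of -0.09. The next had 8.97 against 9.41, a difference of -0.44, and the third, with 7.97 on the fluphenazine array, differed by -0.03. All were lower, but by amounts that spread over more than the pooled SD. LSS, which closes the ring to lanosterol, had 9.56 against 9.68, a difference of -0.12. The sterol reductase TM7SF2 had 8.14 against 8.42, a difference of -0.28.

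EBP shifts a ring double bond, SC5D adds another, and DHCR7 reduces its precursor to cholesterol. EBP had 10.73 against 10.90, 10.39 against 10.69 and 7.46 against 7.73, so its differences of -0.18, -0.30 and -0.28 lay close together. SC5D, with 10.97 against 11.02, was nearest to 0 in the branch. DHCR7 had 10.39 against 10.44 and 9.45 against 9.61. Differences in this branch did not follow the order of its steps.

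The regulators and sterol carriers were mixed, with 4 of 7 lower and a median of -0.02. SREBF2 had 6.33 against 6.54, a difference of -0.21, and 6.07 against 6.36, a difference of -0.29. Its second probe set passed the floor on the DMSO array alone, and it was the only member probe set to pass on 1 array. SREBF1, with 7.62 against 7.59, differed by 0.02. SCAP had 7.75 against 7.85, a difference of -0.10. INSIG1 and INSIG2 hold SCAP back when sterols are plentiful, and INSIG1 is itself a target of SREBPs. INSIG2, with 10.20 against 10.23, differed by -0.02.

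INSIG1 had no settled direction. Its brightest probe set was higher, at 10.57 against 10.37, a difference of 0.20. The other 2 were lower, at 9.67 against 9.75 and 7.90 against 8.14, which are differences of -0.09 and -0.25. Their mean over the 3 was -0.04. These differences span more than the pooled SD of 0.13, and the choice of probe set decides the sign.

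TMEM97 had the largest difference of all members that passed the floor. It encodes the sigma-2 receptor, a membrane protein that regulates the cholesterol exporter NPC1 of lysosomes. Its 4 probe sets had 9.60 against 10.00, 9.54 against 10.01, 7.64 against 8.02 and 7.50 against 8.12, and all 4 fluphenazine values were lower. The differences ran from -0.38 to -0.62, and the brightest probe set, at -0.40 or 1.32-fold lower, ranked 111 from the lowest of 9196 genes. The sterol carrier STARD4 differed by 0.11, with 8.92 against 8.81.

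Repeated probe sets of a gene read the same RNA on the same 2 arrays. Their agreement therefore says nothing about other cultures. Of 14 members that had 2 or more probe sets over the floor, 10 had every one lower, against 30.5% of 3668 such genes. SREBF2 is among the 10, with a second probe set that passed the floor on the DMSO array alone. In HMGCS1, NSDHL and TMEM97 every one was lower by more than 0.32, against 0.518%. The RefSeq promoters (GRCh38.p14) of these 3 genes are shown for that reason. ELOVL6 was also lower by more than 0.32 at all 3 of its probe sets, but only 1 was above the floor. Its promoter is not shown, and its window held no CCAAT. Each window runs from 250 bases before to 50 bases after a transcript start. The capitals mark CCAAT, or its reverse complement ATTGG, the core of NF-Y sites. The HMGCS1 window is chr5:43313363-43313662 (- strand). It is 1 of 2 windows listed for the gene and was picked because it holds more CCAAT matches. The window of NSDHL is chrX:152830813-152831112 (+ strand) and that of TMEM97 is chr17:28318950-28319249 (+ strand).
HMGCS1: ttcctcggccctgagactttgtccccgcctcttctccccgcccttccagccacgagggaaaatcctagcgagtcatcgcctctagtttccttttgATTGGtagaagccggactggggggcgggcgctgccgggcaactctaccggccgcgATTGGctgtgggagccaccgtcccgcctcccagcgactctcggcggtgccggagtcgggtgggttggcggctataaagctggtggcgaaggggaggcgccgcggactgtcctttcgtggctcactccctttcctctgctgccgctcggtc
NSDHL: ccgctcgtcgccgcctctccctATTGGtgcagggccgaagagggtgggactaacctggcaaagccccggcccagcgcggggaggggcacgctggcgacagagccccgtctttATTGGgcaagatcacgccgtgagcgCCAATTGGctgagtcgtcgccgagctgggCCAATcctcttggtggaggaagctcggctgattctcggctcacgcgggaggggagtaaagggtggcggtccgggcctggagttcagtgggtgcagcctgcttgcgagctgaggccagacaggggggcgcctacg
TMEM97: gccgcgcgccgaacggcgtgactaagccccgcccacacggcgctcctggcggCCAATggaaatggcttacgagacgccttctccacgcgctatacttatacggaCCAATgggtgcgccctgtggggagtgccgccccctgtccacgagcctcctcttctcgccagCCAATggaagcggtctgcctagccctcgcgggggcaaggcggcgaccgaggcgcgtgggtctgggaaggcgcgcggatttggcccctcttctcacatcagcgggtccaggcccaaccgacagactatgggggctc
The HMGCS1 window holds 2 such matches, that of NSDHL 5 and that of TMEM97 3. The other window of HMGCS1, at chr5:43313132-43313431, holds none. In NSDHL a forward and a reverse match, which begin 113 and 110 bases before the start, overlap.

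CCAAT was common in these promoters without separating the members by their difference. Of 34 members with a RefSeq window, 25 held it on either strand (73.5%), and of 15 in sterol synthesis 13 did, against 44.3% of 7700 genes above the floor and 39.7% of all 27305 genes in the table. A gene with several windows was counted once, if any window held the letters. Members above the floor with CCAAT had a median difference of -0.06 (n = 23), and those without it had -0.10 (n = 7). GGGCGG, the core of Sp1 sites, was in 32 members (94.1%), against 78.9% of genes above the floor, and CACGTG, an E-box, was in 5 (14.7%), against 13.1%. Base composition was not matched.

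The sterol regulatory element was searched as TCACNCCAC on both strands, without mismatches. It was in the windows of 2 members, SREBF2 and MID1IP1, and in those of 1.39% of all genes. Both promoters are shown with the match in capitals. The window of SREBF2 is chr22:41832855-41833154 (+ strand), with the match beginning 133 bases before the start, and that of MID1IP1 is chrX:38801209-38801508 (+ strand), with the reverse match beginning 40 bases before it.
SREBF2: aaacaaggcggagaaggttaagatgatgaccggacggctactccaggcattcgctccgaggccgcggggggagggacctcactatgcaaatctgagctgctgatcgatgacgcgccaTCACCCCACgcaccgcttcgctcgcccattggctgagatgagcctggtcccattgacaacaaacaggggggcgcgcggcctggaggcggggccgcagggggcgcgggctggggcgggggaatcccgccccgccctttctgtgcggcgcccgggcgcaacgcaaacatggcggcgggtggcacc
MID1IP1: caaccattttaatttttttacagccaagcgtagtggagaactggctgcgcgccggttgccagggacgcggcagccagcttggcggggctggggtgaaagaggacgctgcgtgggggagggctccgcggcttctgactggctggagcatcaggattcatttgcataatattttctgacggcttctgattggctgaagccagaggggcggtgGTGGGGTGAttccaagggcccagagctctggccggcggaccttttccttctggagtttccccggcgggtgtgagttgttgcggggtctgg
SREBF2 differed by -0.21 and MID1IP1 by 0.02, the latter well inside the pooled SD of 0.13. Both matches read TCACCCCAC, a form found in 0.535% of all genes. A window without the letters says nothing about binding of SREBPs to that gene.

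In the fatty acid branch, the enzymes that supply acetyl-CoA and NADPH lay close to 0. ACLY, which cleaves citrate, had 11.15 against 11.19, 8.65 against 8.75 and 8.09 against 8.30, so its dimmer probe sets differed by more (-0.11 and -0.20) than its brightest (-0.04). ACSS2, which activates acetate, had 8.67 on both arrays. ME1, which makes NADPH from malate, had 10.58 against 10.57, and 8.98 against 8.76 at its second probe set, where the difference of 0.22 was the highest of any member probe set above the floor.

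Synthesis itself also differed little. ACACA, the carboxylase that makes malonyl-CoA, had 9.40 against 9.39, and MID1IP1, which promotes its assembly into filaments, had 7.34 against 7.31. FASN, the fatty acid synthase, had 6.61 against 6.64, close above the floor. SCD, the desaturase that makes oleate, was split: its brightest probe set had 11.81 against 11.70, a difference of 0.11, and the other 3 were lower, by differences of -0.06 to -0.10. The mean over its 4 probe sets was -0.04.

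ELOVL6, which lengthens palmitate, had the largest difference of the branch. It had 7.12 against 7.51, a difference of -0.40 or 1.32-fold, and ranked 112 from the lowest of 9196 genes. Its other 2 probe sets, both under the floor, were lower as well, at 5.22 against 5.84 and 3.78 against 4.32. ELOVL5, which lengthens polyunsaturated fatty acids, had 11.34 against 11.30, and the desaturase FADS2 had 8.69 against 8.72. LPIN1, a phosphatidate phosphatase and SREBP target, was lower at all 3 of its probe sets, with 9.96 against 10.19, 9.30 against 9.47 and, under the floor, 5.03 against 5.37. ELOVL6 and LPIN1 apart, the gene-level differences of the branch lay between -0.04 and 0.11.

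**Figure D3:**
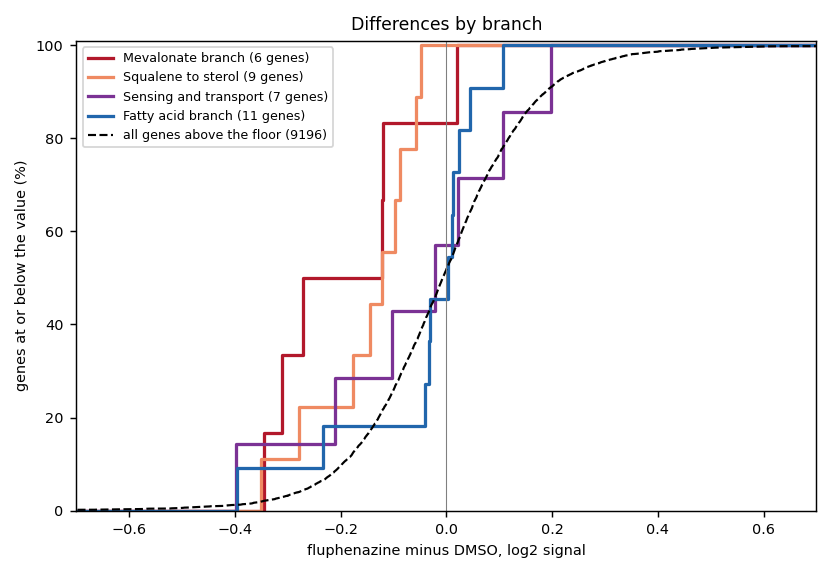
Share of genes (vertical axis, percent) at or below a given log2 difference (horizontal axis, fluphenazine minus DMSO) for each branch and, dashed, for all 9196 genes above the floor. The mevalonate and squalene-to-sterol lines lie left of the dashed line over most of their length, and the fatty acid line crosses it near 0.

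The difference between the branches has no test here. Gene by gene, the 9 genes from squalene to sterol lay between -0.35 and -0.05, and 9 of the 11 fatty acid genes that passed the floor lay above all of them. The branches overlapped through ELOVL6 and LPIN1, and MVK of the mevalonate branch lay among the fatty acid genes.

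**Figure D4:**
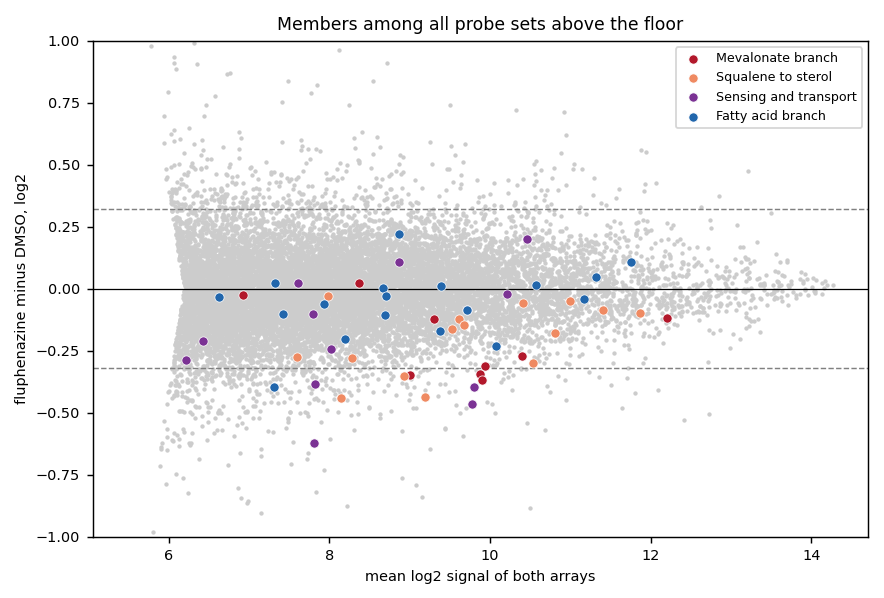
Difference in log2 signal (vertical axis, fluphenazine minus DMSO) against the mean log2 signal of both arrays (horizontal axis) for all 14668 probe sets above the floor (grey) and the members (coloured by branch). Dashed lines mark differences of -0.32 and 0.32, and 9 grey probe sets lie beyond the axis limits of -1 and 1. The 11 member probe sets below the lower dashed line have mean signals under 10.

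The size of a member's difference depended on which probe set was read. In 12 of 14 members with several probe sets above the floor, the dimmer ones were on average lower than the brightest, against 57.7% of 3668 such genes. In sterol synthesis this held in 7 of 7 genes, whose median was -0.18 at the brightest probe set and -0.29 over the others. Over all such genes these medians were 0.01 and -0.02. SREBF2 is among the 12 members through the probe set that passed the floor on the DMSO array alone. INSIG1, SCD and MVK changed sign between the 2 readings, and ME1 and LPIN1 went the other way. Position in the transcript, signal level and cross-matching differ between probe sets of a gene, and their part in this was not tested.

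**Figure D5:**
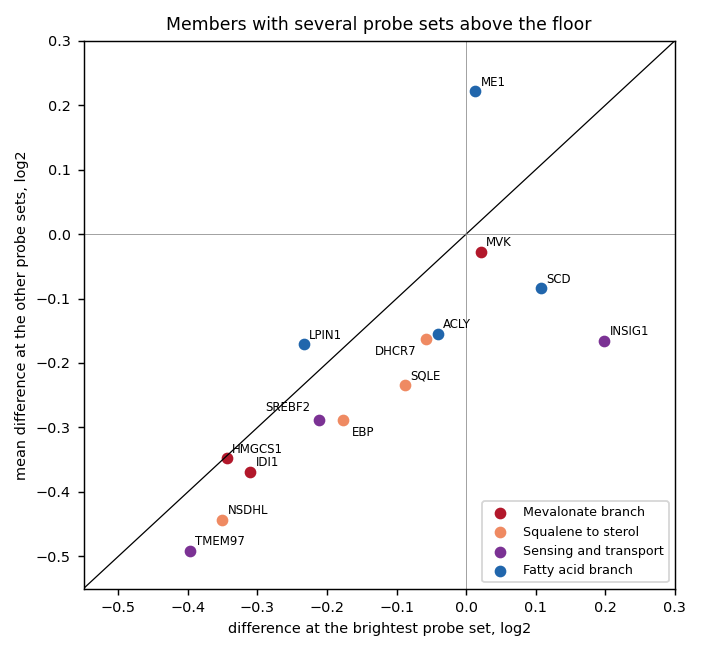
For the 14 members with several probe sets above the floor, the log2 difference at the brightest (horizontal axis) and the mean difference at the others (vertical axis), with the line of equality. Points of 12 members lie below the line, with INSIG1 farthest from it.

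Other genes of the same pathways were taken from a list of 51 genes, of which 40 were analysed above the floor. Of these 23 were lower (51.8% of all genes), with a median of -0.06, and none was lower by more than 0.32 (2.58% of all genes). The 13 genes of fatty acid and lipid synthesis in that list had 8 lower and a median of -0.12, as large as that of the sterol synthesis members. Its 10 genes of sterol and isoprenoid metabolism had 6 lower and a median of -0.06. The elongase ELOVL7 was higher by more than 0.32, with 6.65 against 6.25, a difference of 0.40 at its only probe set. MYLIP, a ubiquitin ligase that removes the LDL receptor, was higher at all 4 of its probe sets above the floor, by 0.12 to 0.23. SOAT1, which esterifies cholesterol, was at 0.21, but its second probe set above the floor was at -0.05. The acyl-CoA synthetase ACSL4 was at 0.17 at its 1 probe set above the floor. The mean over its 3 probe sets was -0.005, with 1 of 3 lower. On the low side were TECR, the reductase of fatty acid elongation, at -0.29, DGAT2, which makes triglyceride, at -0.29, the lipoprotein receptor SCARB1 at -0.25 and the dehydratase HACD3 at -0.21. SCARB1 was lower at both of its probe sets above the floor and HACD3 at all 4 of its own. TECR had 1 probe set above the floor, and the mean over its 2 probe sets was -0.06, with 1 of 2 lower.

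Some facts of the whole arrays bear on differences this small. The 24 probe sets of the poly-A spike-ins, bacterial transcripts added before labelling, all had lower signals with fluphenazine. Their median difference of -0.22 is larger in size than the sterol median of -0.12. The ACTB control differed by -0.13 at its 5' probe set, -0.17 in the middle and -0.003 at its 3' probe set, and GAPDH by 0.06, -0.02 and 0.03. Their part in the members' differences was not tested. All 4 measured epithelial markers (KRT8, KRT18, KRT19 and EPCAM) were above the floor, at 9.28 to 12.72 on the fluphenazine array and 9.70 to 12.69 on the DMSO array. KRT8 itself differed by -0.42, at a probe set whose identifier ends in x. That was more than any member above the floor at its brightest probe set. Dimmer probe sets of TMEM97, NSDHL and SQLE differed by more. KRT18, KRT19 and EPCAM differed by -0.13, -0.08 and 0.07. Of 10 measured markers of blood, endothelial and fibroblast cells, 8 were under the floor, all but PECAM1 and COL1A1. PECAM1 was lower at all 3 of its probe sets above the floor, by differences of -0.27 to -0.55. Of 3 androgen-responsive genes KLK3 and TMPRSS2 passed it and KLK2 did not. KLK3 passed at 1 of its 3 probe sets, whose identifier ends in x, and TMPRSS2 at 1 of 4.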

How the data were processed

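RNA of PC3 cells given 10 µM fluphenazine or DMSO was labelled with biotin and hybridised to 1 array each. The deposited values are log2 signals per probe set, judged from their range of 1.60 to 14.28; sorted, the 2 columns differed by at most 0.13. RMA, Transcriptome Analysis Console 3.1 and Affymetrix Expression Console 1.4 are named with no role or order, per the submitters' processing notes. Genes came from a 2016 platform annotation, in which 37151 of 47693 probe sets name 1 gene, and symbols were updated through the gene identifier.

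Members, lists and thresholds were chosen with earlier results of these data known. A gene was read by its brightest probe set, the floor was 6.19 and the log2 threshold 0.32. All members were accounted for; values were given in full for those past the threshold, for the largest difference against each branch's sign and for the regulators. Pathway genes outside the members were named by the 4 largest differences each way. Promoters were to be printed where they held TCACNCCAC; those with CCAAT were added after values were seen. Alternatives were 2 scalings, other ways to read a gene, 2 floors and a 1.5-fold threshold. With 2 arrays, their number limits the precision. Python 3.11.15, pandas 2.3.3 and numpy 2.4.6 were used. The code for gene-level differences was run on simulated data with known shifts. That run checks the code and does not test the differences reported here.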

Additional observations from a re-analysis of the deposited data

How the results depend on the processing

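No paired analysis was possible because each treatment has 1 array, and for the same reason no array could be left out. Some signs changed with the probe set that was read or with the setting. INSIG1, 0.20 at its brightest probe set, was -0.04 when its probe sets were averaged and -0.25 at the dimmest, and SCD, 0.11 at its brightest, was -0.04 and -0.10. The fatty acid median was negative or positive depending on the setting and at most 0.03 in size, and 7 of 11 genes were lower after quantile normalization (50.4% of all genes) and 6 of 11 at the dimmest probe set (55.5%) or the mean above the floor (53.9%). No other median or count of a group moved with centring on the array medians or with quantile normalization. A median counts here as moved when it shifts by more than the pooled SD of 0.13 divided by the square root of the number of genes, and a count when it changes by more than 1.5 times. Averaging all probe sets of a gene put the squalene-to-sterol median at -0.20 and that of all members at -0.11, and left 0 fatty acid genes past the threshold of 0.32: ELOVL6, at -0.52, dropped under the floor with its average signal. Averaging those above the floor put all members at -0.11, with 2 mevalonate genes past the threshold (2.64% of all genes). Reading the dimmest probe set above the floor, an alternative chosen after seeing the data, gave 2 mevalonate genes and 3 of 40 other pathway genes past the threshold (3.77% of all genes), a median of -0.10 for regulators and carriers and -0.12 for all members. Without a floor the mevalonate median was -0.27 with 2 genes past the threshold, and 1 of 43 other pathway genes passed it (5.38% of all genes). So did 19 of 77 member probe sets, namely 11 of 55 above the floor and 8 of 22 under it. Among all probe sets, 436 of 14668 above the floor and 1983 of 22483 under it were lower by that much. The stricter floor of 8.43, which keeps fewer genes, gave medians of -0.27 for mevalonate, 0.044 for regulators and carriers (2 of 4 lower), in place of -0.02, and -0.081 for other pathway genes. It left 3 of 8 fatty acid genes lower (48.6% of all genes) and 0 past the threshold (1.46%), and 28 of 36 member probe sets lower with 7 past it. Without identifiers ending in s or x, 18 of 26 member probe sets were lower and 7 were past the threshold. For the stricter floor and for this selection, the shares over all probe sets were not computed. These counts of member probe sets therefore have no background to be read against. At 1.5-fold, 0 genes in each branch and in all members passed (0.294% of all genes). Of the 55 member probe sets above the floor 1 did, against 50 of all 14668 probe sets. The cause of these shifts was not tested, apart from the fewer genes or probe sets that the floor and the identifiers leave.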

Other observations

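The fatty acid elongation cycle, which lengthens acyl chains by a condensation, a reduction, a dehydration and a further reduction, was not uniform. The condensing enzymes ELOVL6 and ELOVL7 differed in opposite directions, at -0.40 and 0.40, and ELOVL5 was at 0.05. The ketoreductase HSD17B12 was at 0.01, while the dehydratase HACD3, at -0.21, and the closing reductase TECR, at -0.29, were lower. HSD17B12 and TECR each had 1 probe set above the floor. With those under it, the mean was -0.36 for HSD17B12 (3 of 4 lower) and -0.06 for TECR (1 of 2 lower). HACD3 ranged from -0.51 to -0.18 over 4 probe sets above the floor.

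Genes that process SREBPs, bind beside them or degrade sterol-pathway proteins were split, with 8 of 15 lower and a median of -0.05. The Golgi proteases MBTPS1 and MBTPS2 were at -0.10 and 0.07, and the ubiquitin ligases RNF139 and RNF145 at 0.12 and -0.16. Among the partners of SREBPs at promoters, NFYA was at -0.05, NFYB at 0.10, NFYC at -0.10 and SP1 at -0.21. The second probe set above the floor gave -0.005 for SP1 and -0.09 for NFYB, so the sign of NFYB depended on the probe set. Above the floor, NFYA was lower at 2 of 3 probe sets and NFYC at all 4.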
